A study of Talaromyces verruculosus with 6 samples.

Results

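A set of 207 of the 11326 annotated genes of Talaromyces verruculosus strain TS63-9 was lower in mycelia given pectin and stood highest in the first control culture. Membership was decided by RPKM, read counts scaled to coding length and to the reads of the library, as deposited by the authors. A member had a mean control level of at least 5 RPKM, a mean pectin level of at most 0.4 times the mean control level, a highest pectin value below the lowest control value, and a control 1 value at least 1.5 times the larger of controls 2 and 3. These conditions use all 6 libraries, so the difference between pectin and control and the height of control 1 were chosen and are described here without a test of the set.

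The series compared actively growing mycelia of this filamentous fungus in basic medium with 5 g/L pectin with mycelia in the same medium without pectin, both collected after 24 h. Each group had 3 cultures, called biological replicates in the design text, and poly-A selected RNA was sequenced from each. Both groups are 1 strain, sampled at 1 time. The label of growing mycelia could not be checked against marker genes, because the files pair the locus tags with no gene names or products. For the same reason genes are described by level and position, and 2 are named by tag.

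Pectin is a polysaccharide of plant cell walls that is rich in galacturonic acid, and many filamentous fungi secrete enzymes that break it down and take up the products as a carbon source. A change of carbon source in such fungi is known to shift the expression of secreted enzymes, sugar transporters and secondary metabolism. In fungal genomes, genes of 1 biosynthetic or catabolic pathway often lie side by side and are expressed together. These statements are background, and no member has been assigned to such a pathway here.

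The libraries held 10320372 to 11393959 reads on annotated exons and reads for 10394 to 10548 genes. The RPKM values correspond to a total of about 16155979 to 18049395 reads per library, of which exon reads made up 61.5% to 67.8%. Control 1 had the highest TMM factor (a scaling factor that compares library composition), at 1.18 against 1.02 and 1.03 in controls 2 and 3. The pectin libraries had 0.903 to 0.945, so the 2 groups differed in composition as well. Over the 6795 genes with a mean control level of at least 5 RPKM, the median gene had 1.11 times as much RPKM in control 1 as in the mean of controls 2 and 3. The median log2 ratio of mean pectin to mean control RPKM was −0.13 over the same genes, so RPKM ratios below 1 are to be read against that shift. When RPKM was divided by the TMM factor of each library, 106 genes met the rule, and all 106 were among the 207.

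Genes that met the first 3 conditions numbered 352, and the 207 members made up 58.8% of them. Setting the same 1.5-fold demand on control 2 in place of control 1 gave 0 of the 352 genes, and setting it on control 3 gave 6. Over all 6795 expressed genes the demand was met by 1217 genes (17.9%) for control 1, by 52 (0.765%) for control 2 and by 158 (2.33%) for control 3. A highest pectin value below the lowest control value was found in 24.2% of the 6795 genes. The other 145 pectin-lowered genes met the first 3 conditions but not the one on control 1, and they serve below as a comparison.

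Members ranged widely in level. The median member had 5.15, 4.35 and 3.65 RPKM in pectin 1, 2 and 3, against 28.8, 12.03 and 10.4 RPKM in control 1, 2 and 3. The 3 pectin medians lay close together, and control 1 stood above controls 2 and 3, which were similar to each other. Mean control levels ran from 5.02 to 992 RPKM with a median of 17.1, and 55 members had under 10 RPKM while 17 had 100 to 500 RPKM and 4 had more. Every member had reads in every library, with a lowest count of 3 exon reads in a pectin library and 14 in a control library.

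**Figure D1:**
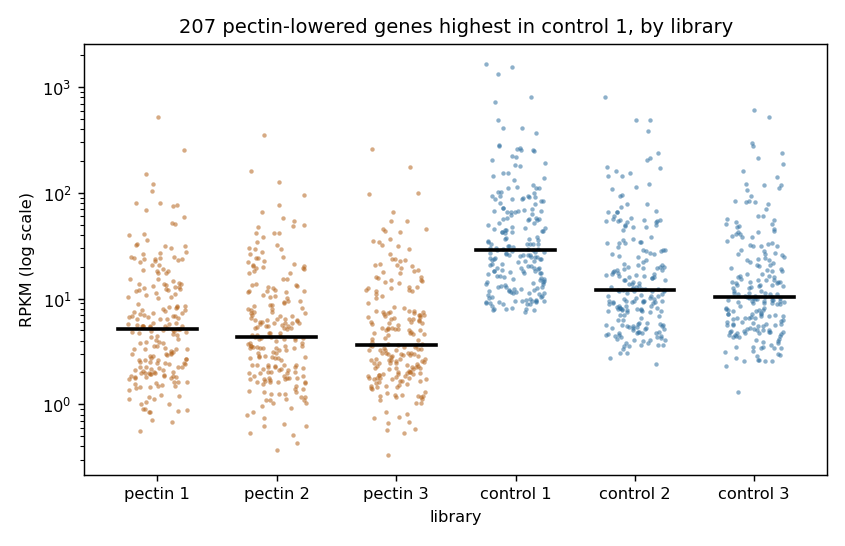
Each point is the RPKM (log scale) of 1 of the 207 member genes in 1 library, and the black bar is the median of the library. The medians of the pectin libraries lie between 3.65 and 5.15 RPKM, those of controls 2 and 3 at 12.03 and 10.4 RPKM, and that of control 1 at 28.8 RPKM.

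Together the members took 0.558 ± 0.107% of exon reads in pectin libraries and 2.27 ± 1.30% in control libraries (SD, n = 3 each). The share was 0.668%, 0.552% and 0.454% in pectin 1, 2 and 3, against 3.77%, 1.70% and 1.35% in control 1, 2 and 3. The large SD of the controls thus comes from control 1, and the lowest control share was above the highest pectin share. The rule sets both gene by gene in RPKM. The other pectin-lowered genes took 0.501 ± 0.0678% in pectin and 1.99 ± 0.127% in control libraries (SD, n = 3 each). They had no such height of control 1, as they were defined by lacking that excess. The 10 members with the highest control level held 45.4% of the members' summed RPKM in control 1 and 40.6% to 45.9% in the pectin libraries.

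Across members the excess of control 1 over the larger of the other controls ran from 1.51 to 5.41 times, with a median of 2.09. It was under 2 in 92 members, between 2 and 3 in 87 and at least 3 in 28. The mean pectin level was between 0.0428 and 0.3999 of the mean control level, with a median of 0.275. It was at most 0.1 in 9 members, above 0.1 and up to 0.2 in 41, above 0.2 and up to 0.3 in 72, and above 0.3 in 85. The median coefficient of variation among the controls was 53.4%, a value the rule forces up, while that among the pectin libraries was 23.5%, beside 24.8% in the other pectin-lowered genes and 15.3% in all expressed genes.

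Genes near the thresholds were much alike on either side. The member closest to the control 1 condition had 2.21, 1.97 and 1.93 RPKM in pectin 1 to 3, against 11.2, 7.44 and 6.23 RPKM in control 1 to 3, an excess of 1.51. The closest gene outside it had an excess of 1.49. For the ratio of pectin to control the closest values were 0.3999 inside and 0.4005 outside, and for the mean control level 5.02 RPKM inside and 4.91 RPKM outside. The lowest control was 1.01 times the highest pectin value in the member closest to overlap, and 0.957 times in the closest gene outside. Failing a single condition were 197 genes for the ratio, 181 for the minimum level and 9 for the overlap.

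Control 1 raises the control mean of every member by construction, so the members were also set against controls 2 and 3 alone. Their mean pectin level was then a median of 0.406 of the mean of controls 2 and 3, with a range of 0.0881 to 0.793, and it was below that mean in all 207. At most 0.5 of controls 2 and 3 was found in 154 members (74.4%), beside 7.40% of all expressed genes, and at most 0.4 in 100 members. Since every member also had to lie below each control, none could reach 1 here, and these counts are a description. Among the other pectin-lowered genes the same median ratio was 0.294, which is lower than in the members, and it was 0.295 with all 3 controls.

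Members with a larger control 1 excess were less low with pectin once control 1 was left aside. The median ratio of mean pectin to the mean of controls 2 and 3 was 0.347 in the 92 members with an excess under 2, 0.440 in the 87 members between 2 and 3, and 0.539 in the 28 members at or above 3. Controls 2 and 3 enter both the excess and this ratio, so the 2 quantities are tied by their shared values. Against all 3 controls the medians of these classes were 0.270, 0.282 and 0.245. By level the members differed little, with a median ratio to controls 2 and 3 of 0.393 in the 55 members under 10 RPKM, 0.407 in the 109 members from 10 to 50 RPKM and 0.415 in the 43 members at or above 50 RPKM.

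**Figure D2:**
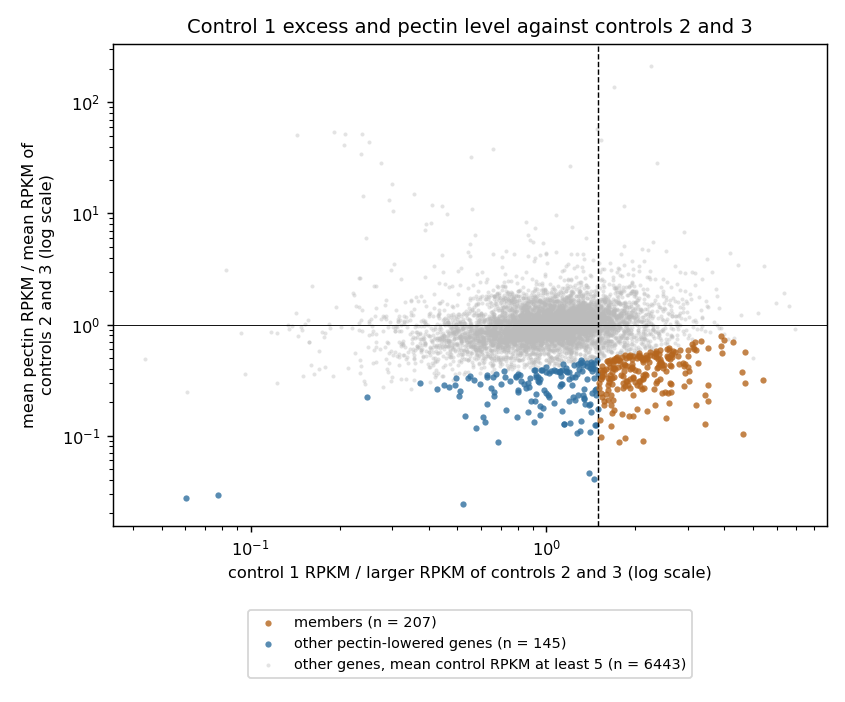
Each point is a gene with a mean control level of at least 5 RPKM, by the ratio of control 1 to the larger of controls 2 and 3 (horizontal, log scale) and the ratio of mean pectin RPKM to the mean RPKM of controls 2 and 3 (vertical, log scale), and the dashed line marks an excess of 1.5. The 207 members lie right of the line and between 0.0881 and 0.793 on the vertical axis, and most of the 1217 genes right of the line lie above them.

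A high control 1 value was also found without a low pectin level. Of the 1217 expressed genes whose control 1 value was at least 1.5 times both other controls, 207 (17.0%) were members, and 308 had a mean pectin level at or above the mean of all 3 controls. Their median ratio of mean pectin to the mean of controls 2 and 3 was 1.00, against 0.933 in the 5578 genes without that excess. Of the genes without the excess 145 (2.60%) met the first 3 conditions. The excess itself raises the control mean and so helps a gene pass the conditions on level and ratio. The no-overlap condition rests on the lowest control and is not eased by it.

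In the fit over all genes by edgeR's quasi-likelihood test, which used all libraries and TMM factors, 642 of 9177 genes tested were lower with pectin (7.00%, Benjamini-Hochberg adjusted p under 0.05). All 207 members passed the filter on low counts, and 157 of them were called lower. All 157, or 75.8% of the members, were also at least 2-fold lower, beside 5.49% of all genes tested. Nothing is read from these counts, since the rule used the same libraries. The members' log2 fold changes ran from −4.30 to −1.12 with a median of −1.67, against a median of −0.0061 over all genes tested. The 50 members not called had a median control 1 excess of 2.62 and a median log2 fold change of −1.35, against 1.95 and −1.84 in the 157 called.

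Without control 1 the fit called 147 members lower, beside 7.65% of all 9236 genes then tested, and 145 members were called in both fits. The median log2 fold change of the members was then −1.24, with all 207 below 0. The median standard error went down to 0.264, against 0.378 with all libraries. It was derived as the absolute log2 fold change divided by the square root of the F statistic of the quasi-likelihood test. The rule set every pectin value below controls 2 and 3 as well, and it chose a high control 1. Nothing is therefore read from these values or calls. Called and at least 2-fold lower were 130 of the 207 members (62.8%), beside 5.33% of all genes tested. The number of members called was lower without some of the other libraries, at 109 without control 2, 99 without pectin 1, 55 without pectin 2 and 84 without pectin 3. The genes called lower in the whole table then numbered 328, 307, 190 and 419 in the same order. The other pectin-lowered genes had a median log2 fold change of −1.71 without control 1, against −1.62 with it.

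**Figure D3:**
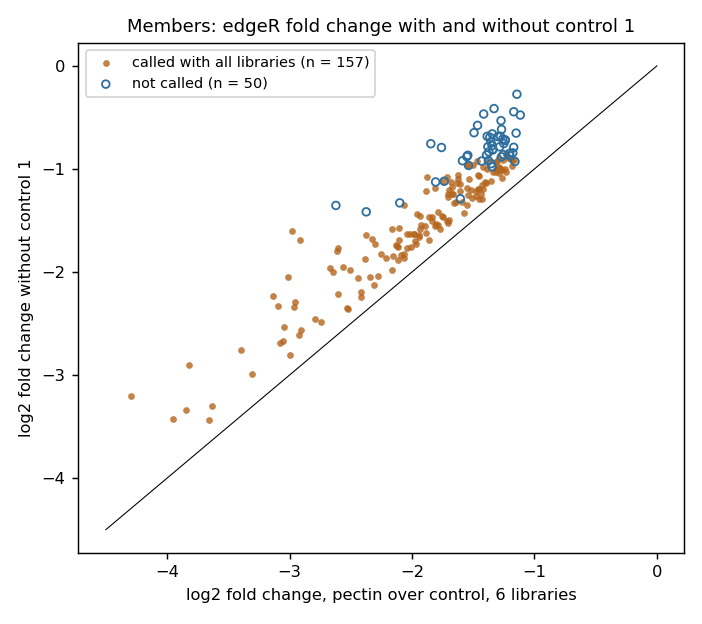
Each point is a member by its log2 fold change of pectin over control with all 6 libraries (horizontal) and without control 1 (vertical), and the line marks equal values. All 207 points lie below 0 and above the line on the vertical axis, so that every member was less low without control 1, as a high control 1 implies. The 50 open points were not called with all libraries.

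The highest control level among the members was that of ZTR_09744, a plus-strand gene of 6 exons and 1464 coding bases on LHCL01000127 (37361 to 39103). It had 525, 351 and 258 RPKM in pectin 1, 2 and 3, against 1560, 812 and 604 RPKM in control 1, 2 and 3. The groups did not overlap, and library 1 was the highest and library 3 the lowest in each. Means were 378 ± 136 RPKM with pectin and 992 ± 503 RPKM in control (SD, n = 3 each), and its log2 fold change of −1.20 became −0.85 without control 1. It was 1 of the 50 members that edgeR did not call.

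The largest control 1 excess was that of ZTR_04240, a plus-strand gene of 2 exons and 519 coding bases on LHCL01000028 (262919 to 263520). It had 4.82, 5.49 and 1.78 RPKM in pectin 1, 2 and 3, against 88.4, 16.3 and 9.25 RPKM in control 1, 2 and 3. Control 1 alone stood far above the rest, at 5.41 times control 2. The log2 fold change of −2.98 was −1.61 without control 1, and mean pectin was 0.315 of the mean of controls 2 and 3. Exon reads behind these values were 43, 47 and 15 in the pectin libraries and 741, 153 and 84 in the controls.

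The order of the 3 pectin libraries was not set by the rule, apart from the demand that all lie below the controls. Pectin 1 was the highest pectin library in 119 members (57.5%), beside 35.9% of all expressed genes and 22.1% of the other pectin-lowered genes. Pectin 3 was the lowest in 111 members (53.6%), beside 34.5% and 21.4% in the same sets. Both held in 81 members (39.1%), beside 22.1% of expressed genes and 10.3% of the other pectin-lowered genes. In the other pectin-lowered genes pectin 3 was most often the highest, at 56.6%.

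The height of pectin 1 was small beside that of control 1. The median member had 1.15 times the RPKM of pectin 2 and 1.29 times that of pectin 3 in pectin 1, while control 1 had 2.18 times control 2 and 2.49 times control 3. An excess of at least 1.5 times both other pectin libraries was seen for pectin 1 in 24 members (11.6%), beside 3.02% of expressed genes. With RPKM divided by the TMM factors, pectin 1 was the highest pectin library in 129 members (62.3%), beside 43.0% of expressed genes, so both shares were higher on that scale. Pectin 1 was the highest in 72.1% of the 43 members at or above 50 RPKM and in 45.5% of the 55 members under 10 RPKM. Shares of all expressed genes by level are not given here, so this difference is not read as a trait of the members. Pectin values of the members under 10 RPKM rest on fewer reads, and the part of read number was not tested.

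Which of controls 2 and 3 was higher was likewise left free by the rule. Control 2 was above control 3 in 149 members (72.0%), beside 38.2% of expressed genes and 49.0% of the other pectin-lowered genes. The median ratio of control 2 to control 3 was 1.18 in the members, against 0.950 in all expressed genes. Across the 207 members the log2 ratio of library 1 to library 3 in pectin followed that in control only weakly, with Pearson's r = 0.179 and Spearman's rho = 0.200, and for library 1 to library 2 the values were −0.0855 and −0.0884. The rule keeps only control 1 values at least 1.5 times controls 2 and 3. This narrows the control ratios and can by itself weaken these correlations, so nothing is read from them. Over all genes tested, the deviations of equal numbers from their group means had correlations of 0.478, 0.0732 and 0.432 for numbers 1, 2 and 3. All these values describe genes of the same libraries, which share depth and composition. The labels do not say that equal numbers mark a shared batch or day, so the part of such a batch was not tested.

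**Figure D4:**
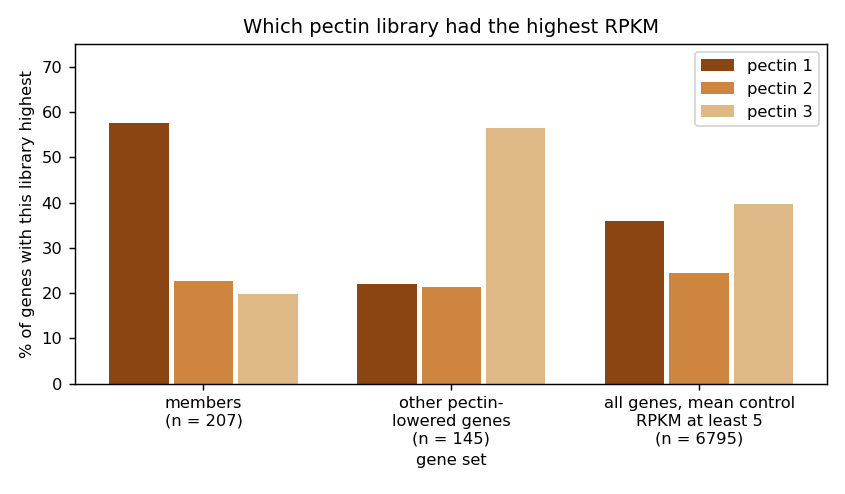
Bars give the percentage of genes in which pectin 1, 2 or 3 had the highest RPKM of the pectin libraries, for the 207 members, the 145 other pectin-lowered genes and all 6795 genes with a mean control level of at least 5 RPKM. Pectin 1 leads among the members at 57.5%, and pectin 3 leads among the other pectin-lowered genes at 56.6%.

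Reads outside annotated exons are separate reads from the same libraries and are not counted in a gene's exon reads, although the library total behind RPKM is larger than the exon reads and may include them. Of all such reads the members held 0.820%, 0.672% and 0.570% in pectin 1, 2 and 3, against 4.21%, 1.97% and 1.67% in control 1, 2 and 3. Control 1 was thus highest in these reads too, and it was the highest control in 205 of the 207 members taken singly. Scaled to the total of such reads in each library, the median member had 0.272 times as many with pectin as in control, and control 1 had a median of 2.04 times the larger of controls 2 and 3. The other pectin-lowered genes held 2.95%, 2.40% and 2.27% of these reads in control 1, 2 and 3, so control 1 was highest there too. Counts and medians over all expressed genes are not given here. The same libraries are compared as in the rule, which chose members for a high control 1, so this is a description and no separate support.

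In structure the members were close to other genes. Their median coding length was 1284 bases, with a range of 249 to 7242, beside 1398 in the other pectin-lowered genes and 1362 in all expressed genes. A single exon was annotated in 50 members (24.2%), in 24.1% of the other pectin-lowered genes and in 20.1% of expressed genes. The median share of reads outside exons was 15.3% with pectin and 17.9% in control in the members, beside 13.2% with pectin and 15.7% in control over expressed genes. Of the 207 members 99 lay on the plus strand.

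The members were spread over 79 contigs, yet 55 of them (26.6%) had a member as a direct neighbour, in 20 runs of at least 2. Among the other pectin-lowered genes 22 of 145 (15.2%) lay in runs of their own kind, and among all 352 pectin-lowered genes 102 (29.0%) lay in runs. Of the 115 members with a control 1 excess of at least 2, 15 (13.0%) lay in runs among themselves. These shares move with the number of genes in each set. No test of the placement was made. The contigs with the most members were LHCL01000008 with 15 of 210 genes, LHCL01000001 with 12 of 519 and LHCL01000006 with 10 of 308. Among contigs with at least 10 annotated genes the share was highest on LHCL01000127, with 8 of 14 genes, and LHCL01000109, with 8 of 20.

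On LHCL01000127 the height of control 1 covered the whole annotated contig, from 1610 to 51202. All 14 genes were expressed at 5 RPKM or more, had a control 1 value at least 1.56 times both other controls, and had a lower mean with pectin, at 0.172 to 0.650 of the control mean. Summed over the 14 genes the level was 1448, 1120 and 845 RPKM in pectin 1, 2 and 3, against 4145, 2039 and 1635 RPKM in control 1, 2 and 3. The groups did not overlap, and library 1 was the highest in each. Pectin 1 was the highest pectin library in 13 of the 14 genes and pectin 3 the lowest in 13.

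The 6 genes of this contig that were not members had ratios of 0.438 to 0.650, and in 3 of them the highest pectin value reached the lowest control value. Of the 14 genes edgeR called 7 lower with all libraries, each of them a member, and 6 without control 1. Of all genes tested 7.00% and 7.65% were called lower in these fits. Members were chosen on the same libraries, so nothing is read from these calls. The median log2 fold change over the 14 genes was −1.25 with all libraries and −0.87 without control 1. Of 137 contigs with at least 5 expressed genes, LHCL01000127 was the only one where every such gene had the 1.5-fold excess of control 1; the median contig had it in 17.2% of its genes and the next highest in 76.9%. This contig was singled out after its values had been seen.

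Runs of at least 3 neighbouring members numbered 6 and held 27 genes. The most abundant run held 4 genes on LHCL01000018 from 89583 to 98814, with 171, 146 and 102 summed RPKM in pectin 1, 2 and 3, against 3273, 991 and 600 summed RPKM in control 1, 2 and 3. Pectin values were low in all 3 libraries, and the controls were far apart, with control 1 at 3.30 times control 2. The sum was 140 ± 34.9 RPKM with pectin and 1622 ± 1444 RPKM in control (SD, n = 3 each), and pectin was 0.175 of the mean of controls 2 and 3. This run alone held 18.4% of the members' summed RPKM in control 1 and 4.53% to 5.60% in the pectin libraries.

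Within the run on LHCL01000018 the pair of genes on the plus strand was the most abundant. The gene from 95019 to 96217 had 59.4, 53.9 and 34.3 RPKM in pectin 1 to 3, against 1674, 487 and 278 RPKM in control 1 to 3. Its neighbour from 97176 to 98814 had 79.7, 66.4 and 45.5 RPKM in pectin 1 to 3, against 1343, 383 and 240.0 RPKM in control 1 to 3. In both the order of the libraries was the same in each group, with library 1 highest and library 3 lowest. The minus-strand pair of the run had mean control levels of 78.2 and 75.2 RPKM and excesses of 1.79 and 2.54. The genes that flank the run showed no such pattern, 1 being listed at 0 RPKM in 5 of the libraries and the other having 3.44 RPKM with pectin and 5.07 RPKM in control on average.

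On LHCL01000008, 7 members followed each other from 56187 to 71200, the highest number in a run, with 2 on the plus and 5 on the minus strand. Its summed level was 42.3, 38.0 and 23.9 RPKM in pectin 1, 2 and 3, against 201, 68.6 and 87.9 RPKM in control 1, 2 and 3. Here control 3 was above control 2, unlike in most members. Single genes had ratios of pectin to control of 0.161 to 0.354 and control 1 excesses of 1.64 to 2.94. Called by edgeR were 4 of the 7 with all libraries and 4 without control 1, beside 7.00% and 7.65% of all genes tested. Nothing is read from calls of members, since the rule used the same libraries. The flanking genes leaned the same way, at ratios of 0.156 and 0.424, and failed the rule by a control level of 1.75 RPKM in the first and by the ratio in the second.

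The 5 genes on LHCL01000001 from 265628 to 274568 had a summed level of 118, 81.1 and 87.6 RPKM in pectin 1, 2 and 3, against 622, 328 and 240 RPKM in control 1, 2 and 3. Mean pectin was 0.337 of the mean of controls 2 and 3. All 5 genes were called with and without control 1, beside 7.00% and 7.65% of all genes tested. The rule used the same libraries, so nothing is read from these calls. The gene from 265628 to 266620 was among the 10 members with the lowest ratio of pectin to control, with 1.06, 0.92 and 0.81 RPKM in pectin 1 to 3, against 20.1, 13.1 and 5.87 RPKM in control 1 to 3. The next gene after the run, from 277133 to 279293, averaged 17.5 RPKM with pectin and 11.4 RPKM in control. The gene before the run, from 262854 to 264726, was lower with pectin at 0.160 of the control mean but had no control 1 excess, with control 1 at 0.972 times the larger of the other controls.

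On LHCL01000010, 4 genes from 575214 to 592151 had a summed level of 92.4, 70.2 and 68.2 RPKM in pectin 1, 2 and 3, against 459, 203 and 150 RPKM in control 1, 2 and 3. The gene at its start had 14 exons and 7062 coding bases, and the flanking genes were hardly expressed, at mean control levels of 0.03 and 0.623 RPKM. The first 4 genes of LHCL01000127, from 1610 to 20713, had 39.5, 32.2 and 26.01 summed RPKM in pectin 1, 2 and 3, against 202, 89.9 and 70.2 summed RPKM in control 1, 2 and 3. They included a gene of 7086 coding bases. In both of these runs library 1 was the highest of each group, and edgeR called all 4 genes with and without control 1. Of all genes tested 7.00% and 7.65% were called lower in these fits. The rule used the same libraries, so nothing is read from these calls.

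The run with the lowest level held 3 genes on LHCL01000109 from 23770 to 36974, with 4.24, 4.36 and 3.60 summed RPKM in pectin 1, 2 and 3, against 28.6, 14.1 and 13.9 summed RPKM in control 1, 2 and 3. The pectin libraries differed little here. The gene just before it, from 22278 to 23475, had a control 1 excess of 2.18 but averaged 78.4 RPKM with pectin and 57.8 RPKM in control. The gene after the run, from 38812 to 39645, had a pectin level of 0.147 of the control mean and a control 1 excess of 1.13. The high control 1 value and the lower pectin level were thus each found without the other in the genes beside this run.

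**Figure D5:**
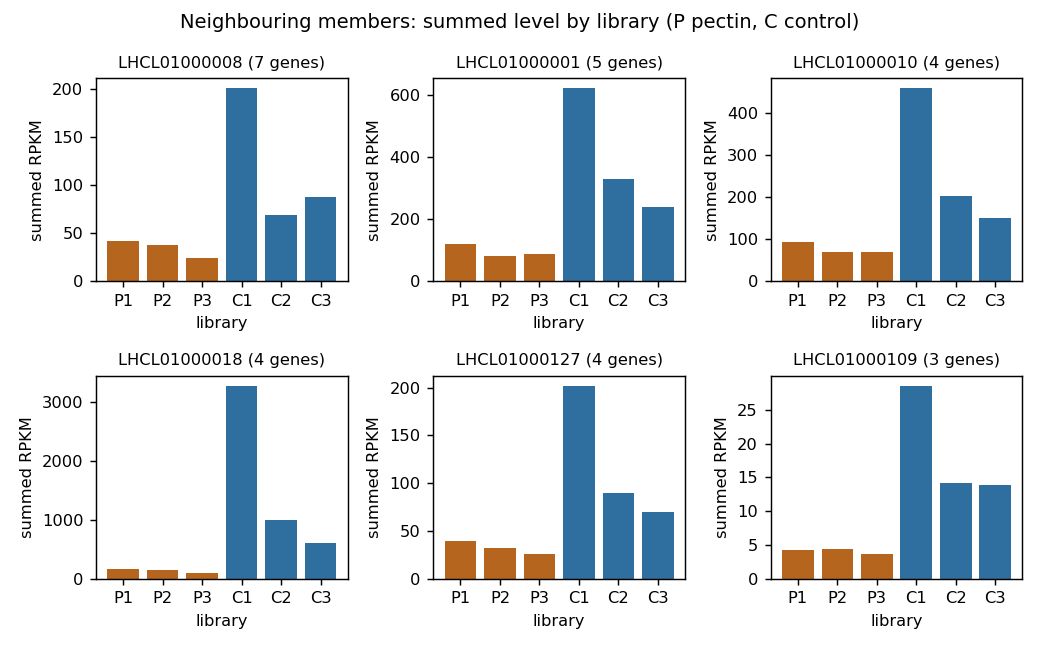
Bars give the summed RPKM of the neighbouring members in each of the 6 runs, by library, with pectin 1 to 3 (P1 to P3) left of control 1 to 3 (C1 to C3) and a separate vertical scale in each panel. Control 1 is the highest bar in every panel, by 1.90 to 3.30 times over the larger of the other controls. Every pectin bar is below every control bar. Both orders follow from the rule, which each summed gene met.

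Genes beside members but outside the set numbered 323, of which 171 were expressed at 5 RPKM or more in control. Among these, 15 (8.77%) were other pectin-lowered genes, beside 2.20% of all expressed genes that were not members. The median ratio of mean pectin to mean control was 0.720 in the 171 genes, against 0.912 in all expressed genes, members included. Their median control 1 excess was 1.13, against 1.04 in that same larger set. No test of these differences was made.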

How the data were processed

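Per the labels' protocols, poly-T purified mRNA was sequenced as paired ends on an Illumina instrument. Aligner, counting tool, strand use and build: not given in the sources used here. Without strand, a gene and its antisense transcription cannot be told apart. Per the file headers, the authors deposited read counts per gene (exon, intron, unique and total) and RPKM. Coding lengths are 100% multiples of 3. Deposited intron counts are called reads outside exons. The TPM columns were not used.

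Members were found from RPKM without digit separators. The test on total exon counts was that of edgeR 4.0.16 under R 4.3.3 (robust quasi-likelihood, TMM, filterByExpr, Benjamini-Hochberg over all genes, threshold 0.05), after the test was tried on simulated counts. Alternatives used DESeq2 1.42.0, limma 3.58.1, other scalings, filters, reads and left-out libraries. Other steps ran in Python 3.11.15.

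Named genes are the member with the highest mean control RPKM and the member with the largest control 1 excess; runs of at least 3 neighbouring members are given by position. Gene lists by product could not be applied, since no products are paired with the tags. The members, lists and tests were chosen with earlier results of these data known. Differences between libraries of a group exceeded sampling noise (chi-square per degree of freedom 33.9 to 135). Whether replicates share a batch is not stated, so spreads are those between these samples. A comparison of 3 with 3 libraries cannot give an exact permutation p under 0.1.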

Additional observations from a re-analysis of the deposited data

How the results depend on the processing

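The number of genes meeting the rule was 106 with RPKM divided by TMM factors. On that scale the members' median ratio of control 1 to control 2 was 1.89, against 2.18 as deposited. A pectin ratio of at most 0.4 was then kept by 151 of the 207 members. The part of each condition in the drop was not tested. The rule was met by 115 genes at a control 1 excess of at least 2 and by 122 at a pectin ratio of at most 0.3. Without a minimum level 388 genes met it. These last counts follow from the thresholds. Leaving out 1 library, 100 to 207 of the members still met the ratio and the no-overlap condition, the lowest without control 1. Leaving out a library cannot break the no-overlap condition, and the rule chose the ratio on the same libraries. These numbers are therefore a description. The calls of members (157, all at least 2-fold) were 139 to 203 over other scalings, filters, reads and tests, and 55 to 176 without 1 library. Of all genes tested, 6.09% to 11.6% and 2.04% to 7.65% were called lower in these fits. The members' counts at 2-fold had the same ranges as their calls, and differed from the calls in 2 fits. The shares of all genes tested at 2-fold were 4.90% to 7.71% and 2.00% to 5.52%. Nothing is read from these counts, since the rule used the same libraries. The median log2 fold change ran from −1.92 to −1.24. Pectin 1 was the highest pectin library in 66 of the 115 members at an excess of at least 2, and 15 of these lay in runs of at least 2, beside 22 of the 106 genes under TMM-scaled RPKM.

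Equal replicate numbers are not said to mark pairs, and the correlations of their deviations from the group means were 0.478, 0.0732 and 0.432 for numbers 1, 2 and 3. With the replicate number as a block 193 members were called lower, beside 11.6% of all genes tested, and 192 at 2-fold, beside 6.85%. This fit called 11 of the 14 genes on LHCL01000127, 3 of them not members. In members called and called at 2-fold, the fit without control 1 gave 147 and 130, beside 7.65% and 5.33% of all genes tested. ZTR_09744 was called only with this block (adjusted p = 0.01196) and with DESeq2 (adjusted p = 0.01434), in a range of adjusted p from 0.01196 to 0.2274 over its 13 alternatives. ZTR_04240, at an edgeR adjusted p of 0.04996, lost its call in 7 of 13 alternatives, in a range of 0.0003935 to 0.1299. No member changed direction in any fit. Depth limits the lowest pectin levels, where single members had as few as 3 reads.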
